A study of Rattus norvegicus with 8 samples.

Results

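The microRNA miR-128 was described from 3 rows of the striatal miRNA count table, namely the guide arm rno-miR-128-3p and the passenger arms rno-miR-128-1-5p and rno-miR-128-2-5p. They were taken by name from 752 mature miRNAs, and all 3 were present and passed the low-count filter. The libraries came from wild-type male Sprague-Dawley rats, 4 that self-administered saline and 4 that self-administered methamphetamine (METH) through a jugular catheter. Every rat, saline rats included, had been trained to press a lever for food and had undergone catheter surgery, and the rats used had shown stable responding at the end. Age was not given in the sources used here. Each library came from 1 rat, and rats are numbered 1 to 4 within their group.

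A miRNA gene is transcribed as a precursor that folds into a hairpin, and the hairpin is cut into a duplex of 2 arms. The arm that is loaded into an Argonaute protein (the guide) represses mRNAs that pair with its seed, the bases near its 5′ end, while the other arm (the passenger) is mostly degraded. MiR-128 is a brain-enriched miRNA of postmitotic neurons, and loss of its gene Mir128-2 in mice leads to hyperactivity and seizures, with raised excitability of dopamine-responsive striatal neurons. In rat, 2 genes, Mir128-1 and Mir128-2, yield the same guide. In the RefSeq gene table of the assembly GRCr8, Mir128-1 lies within R3hdm1, which encodes a protein with a nucleic acid-binding domain, and Mir128-2 lies within Arpp21, which encodes a cAMP-regulated phosphoprotein of striatal projection neurons. Each hairpin is on the strand of that gene. Mir128-2 also lies within the lncRNA gene LOC120094269, which is on the opposite strand.

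The mature arms are shown because the counts of the guide cannot be assigned to a gene, whereas those of the passengers can. The sequences are those of RefSeq on GRCr8, written 5′ to 3′, with the seed (bases 2 to 8) in capitals. The counts themselves were made on the older assembly rn6.
rno-miR-128-3p (both genes): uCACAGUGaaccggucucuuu
rno-miR-128-1-5p (Mir128-1): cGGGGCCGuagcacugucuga
rno-miR-128-2-5p (Mir128-2): gGGGGCCGaugcacuguaaga

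The hairpins are shown next, with both arms in capitals and the flanks and loop in lower case.
Mir128-1, chr13:42251884-42251965, plus strand: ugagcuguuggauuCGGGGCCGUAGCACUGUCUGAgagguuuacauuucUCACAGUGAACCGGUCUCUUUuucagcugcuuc
Mir128-2, chr8:120963795-120963878, minus strand: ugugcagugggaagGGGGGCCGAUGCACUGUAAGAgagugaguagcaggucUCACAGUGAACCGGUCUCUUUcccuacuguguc

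The guide arms of the 2 hairpins were identical over all 21 bases, and the identity ran on for 2 bases before the guide and 0 bases after it. Reads that end within this stretch of 23 bases align equally well to both genes. The next base is U in Mir128-1 and C in Mir128-2. Of the 21 bases of the passengers, 16 were identical. Counted from 1 at the 5′ end, with the Mir128-1 passenger first, the differences were C1G, U9A, A10U, C18A and U19A. None of these lies within the seed, so that the passengers share the seed GGGGCCG. The passengers held 14 and 13 G or C bases of 21 (miR-128-1-5p and miR-128-2-5p), and the guide held 10. Minimum free energy folding paired 15 bases of the passenger with the guide in the Mir128-1 hairpin and 16 in the Mir128-2 hairpin.

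Among the 693 mature miRNA names of the RefSeq table, 0 others carried the seed of the guide and 0 others carried that of the passengers. The 6 bases CACAGU at positions 2 to 7 of the guide occur 1 base further on in 2 miRNAs, miR-27a-3p and miR-27b-3p, which are therefore shown with the same marking.
rno-miR-27a-3p (Mir27a): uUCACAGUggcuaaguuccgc
rno-miR-27b-3p (Mir27b): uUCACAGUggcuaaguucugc

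Total counts ranged from 12929302 (METH rat 1) to 27632443 (saline rat 3). METH rat 4 stood apart from the other libraries. It lay at -21.5 on the first principal component of log2 CPM (a count relative to its library's size, with TMM factors for the scaling), against -2.83 to 7.29 in the other 7 libraries, and its TMM factor was the lowest, at 0.766. The summed level of 5 choroid plexus and ciliated cell miRNAs was 7132 CPM in this library, against 2804 to 3580 CPM in saline rats. Nearly all of it was miR-204-5p (6901 CPM). MiR-211-5p and miR-449a-5p, at 52.7 and 152 CPM, were also at their highest of the 8 rats, while miR-34b-5p and miR-34c-5p, at 8.65 and 18.9 CPM, were at their lowest. The summed level of 3 erythrocyte miRNAs was 2817 CPM, against 403 to 644 CPM in saline rats. Its summed level of 14 neuron-enriched miRNAs, 500225 CPM, was inside the saline range of 352074 to 549495 CPM, but single members were far outside their saline ranges in both directions. MiR-124-3p was the lowest of the 8 rats, at 97752 CPM, whereas miR-9a-5p, miR-7a-5p, miR-127-3p and miR-218a-5p were the highest, at 204524, 66916, 66902 and 25331 CPM. The comparisons of the miR-128 arms are therefore also given without METH rat 4, and the part of these marker differences in the results was not tested. In bulk striatum, fewer cells of a type and less RNA per cell cannot be told apart.

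MiR-128-3p was an abundant striatal miRNA. Its counts were 279749, 237087, 221893 and 228018 in saline rats 1 to 4, and 114153, 226309, 282637 and 168005 in METH rats 1 to 4. On the CPM scale the levels were 12541, 10173, 8092 and 8913 in the saline rats and 7840, 11389, 11403 and 10087 in the METH rats. Saline rat 1 had the highest level and METH rat 1 the lowest, and the groups overlapped. Saline rats averaged 9930 ± 1940 CPM (SD, n = 4), and METH rats averaged 10180 ± 1677 CPM (SD, n = 4).

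A small RNA read spans a whole miRNA, so levels of different miRNAs were compared per read and not per length. By mean CPM, miR-128-3p was number 18 of the 507 miRNAs tested, and its rank in single rats ran from 14 (saline rat 1) to 25 (METH rat 4). In METH rat 4 it took 0.773% of all counts (95% Wilson interval 0.769 to 0.776%), the lowest share of any rat, whereas its TMM-scaled level in that rat was between those of the other METH rats. Intervals of this kind cover counting error only, with each count taken as an independent molecule. Next above it were miR-9a-3p, an arm of a neural precursor, at 11114 ± 2719 CPM (SD, n = 4) in saline rats, and miR-29a-3p, which rises as neurons mature, at 11052 ± 3571 CPM (SD, n = 4). Next below were miR-181b-5p, at 9408 ± 3246 CPM (SD, n = 4), and miR-139-5p, at 6657 ± 1451 CPM (SD, n = 4). Both miR-9a-3p and miR-29a-3p were above miR-128-3p in 4 of 8 rats. MiR-181b-5p was above it in 2 of 8 rats and miR-139-5p in 1, so that the order of these neighbours was not the same in every rat.

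MiR-128-1-5p, the passenger of the R3hdm1 gene, was scarce. Its counts were 169, 144, 108 and 102 in saline rats 1 to 4 and 84, 84, 144 and 125 in METH rats 1 to 4. These were levels of 7.58, 6.18, 3.94 and 3.99 CPM in the saline rats and of 5.77, 4.23, 5.81 and 7.51 CPM in the METH rats. The highest levels were those of saline rat 1 and METH rat 4, and the groups overlapped. The group means were 5.42 ± 1.78 CPM (SD, n = 4) for saline and 5.83 ± 1.34 CPM (SD, n = 4) for METH, and the miRNA was number 376 of 507 by mean level.

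MiR-128-2-5p, the passenger of the Arpp21 gene, was more abundant. Its counts were 370, 817, 706 and 571 in saline rats 1 to 4 and 89, 516, 887 and 865 in METH rats 1 to 4. The levels were 16.6, 35.1, 25.7 and 22.3 CPM in the saline rats and 6.11, 26.0, 35.8 and 51.9 CPM in the METH rats. The METH rats held both the lowest level (rat 1) and the highest (rat 4), 8.50-fold apart, and the saline rats lay between these. The means were 24.9 ± 7.74 CPM (SD, n = 4) for saline and 30.0 ± 19.2 CPM (SD, n = 4) for METH, and the miRNA was number 287 of 507.

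**Figure D1:**
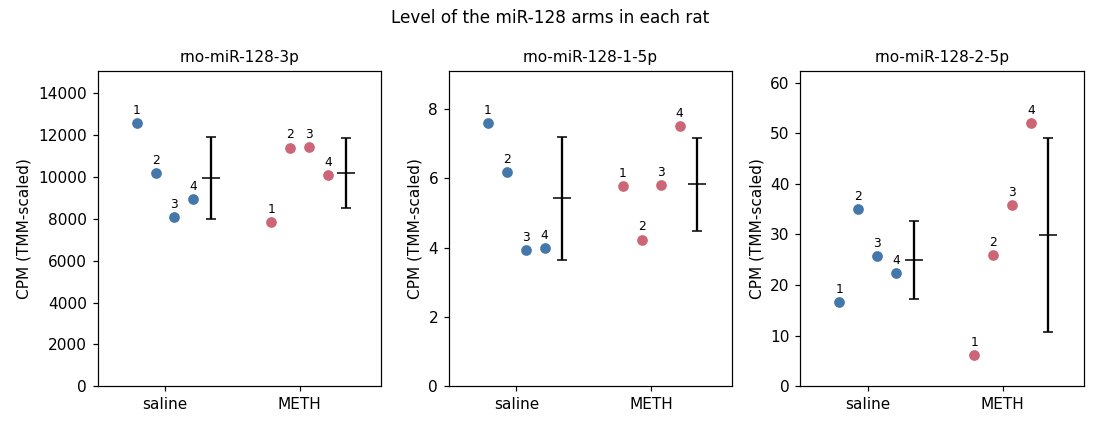
Level of each miR-128 arm in TMM-scaled CPM (vertical axes from 0, a separate scale for each arm) in saline and METH rats; numbers are rat numbers, and the bars show the mean and SD of each group (n = 4). The groups overlap for all 3 arms, and miR-128-2-5p spans 6.11 to 51.9 CPM within the METH group.

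To examine whether METH self-administration changed miR-128, the groups were compared with the quasi-likelihood test of edgeR, fitted over all 507 miRNAs. None of the 3 arms passed an adjusted p of 0.05, and over all miRNAs 0% did (0 of 507). Without adjustment, 28 miRNAs (5.52%) had a p under 0.05, and 0 of the 3 arms were among them. The likelihood ratio test of edgeR called 7 miRNAs, DESeq2 8 and limma voom 0, and in none of these tests was a miR-128 arm called. Groups that did not overlap were seen for 16 of 507 miRNAs (3.16%) and for 0 of the 3 arms.

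For miR-128-3p the log2 fold change (METH to saline) was 0.04 ± 0.22 (SE), with a 95% interval from -0.46 to 0.53 (edgeR adjusted p = 0.985). As a fold, the interval ran from 0.727 to 1.45. Only 39 of the 507 miRNAs had a smaller absolute log2 fold change, and the median over all miRNAs was -0.02. The value was 0.04 ± 0.22 (SE) without METH rat 4 and 0.14 ± 0.23 (SE) without METH rat 1. It was 0.25 with limma voom and sample weights, the highest value of any alternative, with an adjusted p of 0.623 (0.623 to 0.999 over all alternatives). It was -0.10 when libraries were scaled by their totals, a setting in which the median over all miRNAs was -0.12.

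For miR-128-1-5p the log2 fold change was 0.10 ± 0.32 (SE), with a 95% interval from -0.60 to 0.81 (edgeR adjusted p = 0.978). It was -0.04 ± 0.30 (SE) without METH rat 4 and 0.36 ± 0.33 (SE) without saline rat 1. For miR-128-2-5p it was 0.27 ± 0.53 (SE), with a 95% interval from -0.91 to 1.44 (edgeR adjusted p = 0.976). As a fold, this interval ran from 0.533 to 2.71, so that the data bound a change of this arm much less closely than one of the guide. Its value depended on single rats, at 0.60 ± 0.34 (SE) without METH rat 1 and -0.12 ± 0.50 (SE) without METH rat 4, with edgeR adjusted p-values of 0.529 and 0.998 (0.529 to 0.999 over all alternatives).

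**Figure D2:**
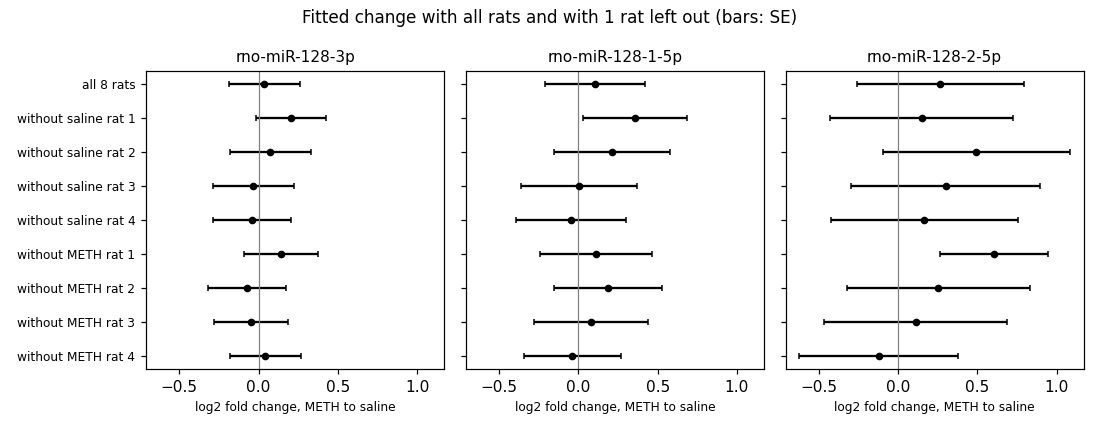
Log2 fold change of each arm, METH to saline (horizontal axis, shared), from the edgeR fit with all 8 rats and with each rat left out in turn; points are estimates and bars are SE. Values for miR-128-3p run from -0.07 to 0.20 with a rat left out, and those for miR-128-2-5p run from -0.12 to 0.60.

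The spread between rats was described for each arm, with no test. Within groups, the SD of log2 CPM was 0.26 for miR-128-3p, 0.40 for miR-128-1-5p and 1.00 for miR-128-2-5p, against a median of 0.47 over all miRNAs tested. For miR-128-2-5p it was 0.45 over the saline rats and 1.34 over the METH rats, and the value within groups was 0.47 without METH rat 1, a leave-out chosen after seeing the data. Of the 507 miRNAs, 12.6% had a lower SD than miR-128-3p (37.3% without METH rat 4). For miR-128-2-5p the share was 92.9%, and 53.1% without METH rat 1. Among the 94 miRNAs whose mean level was within 2-fold of that of miR-128-2-5p, 83 had a lower SD, and their median was 0.47. Without METH rat 1 it was 52 of the 94. For miR-128-3p, 5 of 19 miRNAs of similar level had a lower SD, and 11 of 19 without METH rat 4. For miR-128-1-5p it was 21 of 67, and 45 of 67 without METH rat 4. Counting error was computed with each count taken as an independent molecule. Alone, it would give a coefficient of variation of 9.13% at the mean count of miR-128-1-5p and of 4.07% at that of miR-128-2-5p. Over the 8 rats the observed values were 26.2% and 50.3% of the mean CPM, and for miR-128-3p 16.8%.

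**Figure D3:**
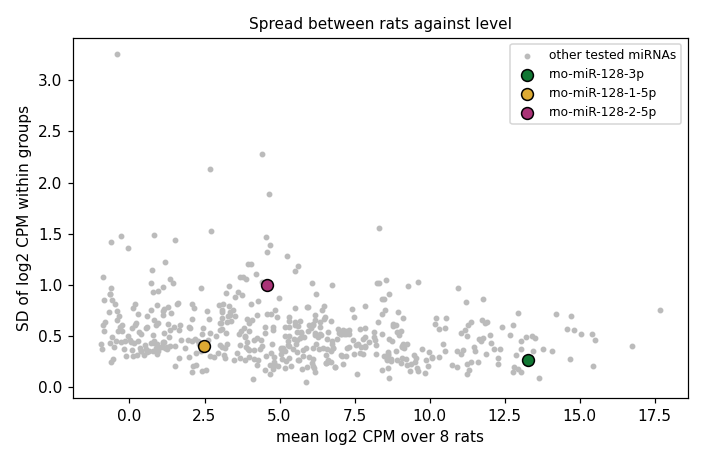
SD of log2 CPM within groups (vertical axis) against mean log2 CPM over 8 rats (horizontal axis) for the 507 tested miRNAs (grey), with the miR-128 arms coloured. MiR-128-3p is at an SD of 0.26 and miR-128-2-5p at 1.00, a value that rests on METH rat 1 (0.45 in saline and 1.34 in METH rats, and 0.47 within groups without METH rat 1).

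Ratios of arms within a library do not depend on the scaling between libraries, so guide and passengers were compared directly. Per count of passenger (both passengers summed) there were 519, 247, 273 and 339 counts of guide in saline rats 1 to 4 and 660, 377, 274 and 170 in METH rats 1 to 4. METH rats again held both extremes, and the groups overlapped. Saline rats averaged 344 ± 123 (SD, n = 4), and METH rats averaged 370 ± 211 (SD, n = 4). The passengers made up 0.314 ± 0.093% of all miR-128 counts (SD, n = 4) in saline rats and 0.341 ± 0.185% (SD, n = 4) in METH rats.

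This arm bias was larger than that of most other precursors with both arms tested. Precursors with an arm too scarce to pass the low-count filter were left out, and these can include the most biased. Over 174 precursors with both arms tested, the median absolute log2 ratio of the arms was 3.81, against 8.36 for miR-128, and 24 precursors had a larger one. The SD of the miR-128 log2 ratio within groups, 0.67, was close to the median over precursors, 0.63, and 96 precursors had a lower SD. Ligation and amplification can favour some sequences, so a ratio of arms in counts need not equal that of the molecules.

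The log2 ratio of miR-128-3p to miR-128-1-5p was 10.9 ± 0.22 (SD, n = 4) in saline and 10.8 ± 0.48 (SD, n = 4) in METH rats. The difference of -0.09 did not exceed the spread of the rats (exact permutation, two-sided p = 0.657, and 0.943 adjusted over 3 ratios). The log2 ratio of miR-128-3p to miR-128-2-5p was 8.67 ± 0.63 (SD, n = 4) in saline and 8.75 ± 1.15 (SD, n = 4) in METH rats, a difference of 0.08 (exact permutation test, p = 0.857, adjusted p = 0.943). Without METH rat 4 these differences were 0.04 and 0.47, and without METH rat 1 they were 0.03 and -0.44. As each rat was left out, they ranged from -0.30 to 0.04 and from -0.44 to 0.47. The smallest p that 4 rats against 4 allow is 0.0286. Arm ratios did not overlap between the groups in 4 of the 174 precursors (2.3%) and in 0 of the 3 miR-128 ratios.

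Since the passengers are specific to their genes, their ratio was used to compare the passenger counts of Mir128-2 and Mir128-1. The passengers differ in sequence, so this ratio need not equal that of the molecules or of the output of the genes. Counts of miR-128-2-5p per count of miR-128-1-5p were 2.19, 5.67, 6.54 and 5.60 in saline rats 1 to 4 and 1.06, 6.14, 6.16 and 6.92 in METH rats 1 to 4. In 6 of the 8 rats the ratio thus lay between 5.60 and 6.92, while saline rat 1 and METH rat 1 lay far lower. The difference between the group means of the log2 ratio was -0.18, with 2.21 ± 0.72 (SD, n = 4) in saline and 2.03 ± 1.30 (SD, n = 4) in METH rats (exact permutation test, p = 0.943, adjusted p = 0.943). It was 0.47 without METH rat 1 and -0.54 without saline rat 1, and it was -0.43 without METH rat 4.

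As a share, miR-128-2-5p made up 68.6% of passenger counts in saline rat 1 (95% Wilson interval 64.6 to 72.4%) and 51.4% in METH rat 1 (44.0 to 58.8%). In the other rats the share ran from 84.8% (81.9 to 87.4%) in saline rat 4 to 87.4% (85.2 to 89.3%) in METH rat 4. The intervals of saline rat 1 and METH rat 1 overlapped neither each other nor those of any other rat, but they cover counting error only. In METH rat 1 the level of miR-128-2-5p was the lowest of all rats while that of miR-128-1-5p was inside the range of the other METH rats. In saline rat 1 miR-128-2-5p was the lowest of the saline rats and miR-128-1-5p the highest of all.

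**Figure D4:**
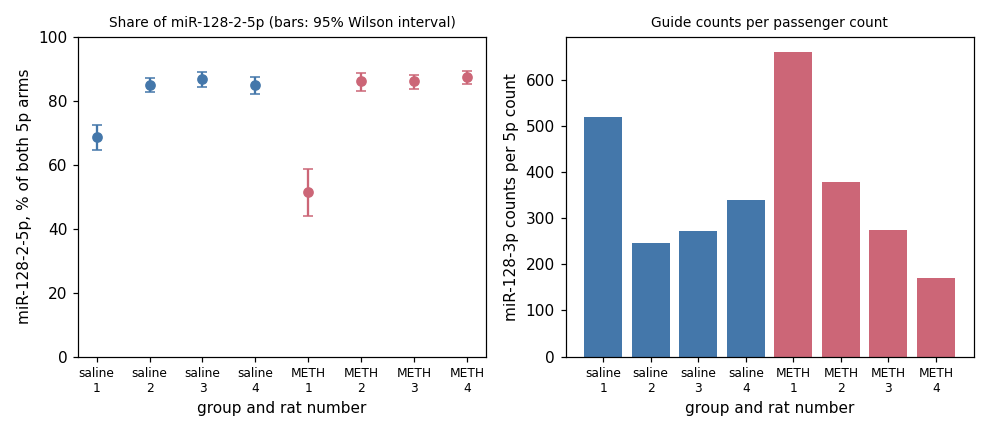
Left, share of miR-128-2-5p among counts of both passengers in each rat, in percent, with 95% Wilson intervals; right, counts of miR-128-3p per passenger count in each rat (bars from 0). Saline rat 1 (68.6%) and METH rat 1 (51.4%) lie below the other 6 rats (84.8 to 87.4%), and they have the 2 highest ratios of guide to passenger (519 and 660).

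Whether the arms varied together across rats was examined by 3 correlations of log2 CPM over the 8 rats, with permutation tests over all pairings of the rats. Between miR-128-3p and miR-128-1-5p, Pearson's r was 0.46 (exact permutation p = 0.249, adjusted 0.487) and Spearman's rho was 0.60 (p = 0.132, adjusted 0.397). Without the 2 rats farthest from the median of miR-128-3p, saline rat 3 and METH rat 1, r was 0.44. With 1 rat left out it ranged from 0.25 (without saline rat 1) and 0.29 (without saline rat 3) to 0.67 (without METH rat 2). Between miR-128-3p and miR-128-2-5p, r was 0.41 (exact permutation p = 0.325, adjusted 0.487) and rho was 0.31 (p = 0.462, adjusted 0.582). This value rested on METH rat 1, since r was -0.14 without that rat and -0.32 without both of the farthest rats. Between the passengers, r was 0.08 (exact permutation p = 0.873, adjusted 0.873) and rho was 0.24 (p = 0.582, adjusted 0.582). Without the 2 rats farthest from the median of miR-128-1-5p it was 0.14. Without METH rat 4 the 3 values of r were 0.50, 0.45 and -0.20, in the same order. None of the 3 correlations passed the threshold.

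The miRNA whose pattern over the 8 rats was most like that of miR-128-3p was miR-384-5p, another brain-enriched miRNA, with a Pearson r of 0.92 for log2 CPM (0.93 without METH rat 4). Its levels were 4475, 3831, 2008 and 2541 CPM in saline rats 1 to 4 and 2651, 4317, 4456 and 3781 CPM in METH rats 1 to 4. Saline rat 1 was the highest and saline rat 3 the lowest, whereas the lowest rat for miR-128-3p was METH rat 1. The next were miR-195-3p, miR-219b, miR-135a-3p and miR-6318, with r from 0.78 to 0.85, all at mean levels of 0.574 to 2.81 CPM. Without METH rat 4, miR-384-5p and miR-219b were still among the 5 most alike, while the other 3 were not. These are low counts, and the median r of all other miRNAs with miR-128-3p was 0.05. Likeness over 8 rats is a description of these libraries only.

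The miRNAs whose seed is displaced by 1 base from that of miR-128-3p were less abundant. MiR-27a-3p was at 874, 879, 895 and 835 CPM in saline rats 1 to 4 and at 801, 1000, 1106 and 941 CPM in METH rats 1 to 4. MiR-27b-3p was at 3068, 2196, 2196 and 2371 CPM in saline rats 1 to 4 and at 2296, 2876, 3526 and 5227 CPM in METH rats 1 to 4. METH rat 4 was the highest for miR-27b-3p, and both overlapped between the groups. The log2 fold changes were 0.14 ± 0.18 (SE) for miR-27a-3p and 0.50 ± 0.27 (SE) for miR-27b-3p, with adjusted p-values of 0.927 and 0.818 in the edgeR test. With each rat left out they ranged from 0.04 (without METH rat 3) to 0.22 for miR-27a-3p and from 0.24 (without METH rat 4) to 0.67 for miR-27b-3p.

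Other lists of miRNAs were set beside miR-128 (0 of 507 miRNAs called, as above). Of 8 listed miRNAs that also lie in protein-coding genes, 0 were called in either direction and 5 had a positive log2 fold change. Whether these genes are all neuronal was not examined. The median of the 8 was 0.25, against -0.02 over all miRNAs. This median rested on single rats, at -0.04 without METH rat 1, 0.07 without saline rat 1 and 0.13 without METH rat 4. It was higher without METH rat 3 (0.41) and saline rat 3 (0.36). The most abundant was miR-218a-5p, from the Slit genes of axon guidance, with 0.42 ± 0.27 (SE), and 0.17 ± 0.19 (SE) without METH rat 4. Of 4 miRNAs linked to dopamine receptors that were tested, 0 were called, 2 were positive and the median was -0.23. The members ranged from -0.92 to 0.32. As each rat was left out, the median ranged from -0.27 to -0.16, and without METH rat 4, 0 of the 4 were positive. The most abundant of these was miR-9a-5p, also a regulator of neurogenesis, with 0.32 ± 0.30 (SE), and -0.0042 ± 0.18 (SE) without METH rat 4. Of 14 neuron-enriched miRNAs, all detected, 0 were called, 8 were positive and the median was 0.09, with a range from -0.04 (without METH rat 1) to 0.14 as each rat was left out. The most abundant was miR-124-3p, which promotes neuronal identity, with -0.13 ± 0.44 (SE). Its sign turned without METH rat 4 (0.11), saline rat 3 (0.07) or saline rat 4 (0.06). The value was lower without METH rat 3 (-0.46), saline rat 2 (-0.34), saline rat 1 (-0.27) or METH rat 2 (-0.26).

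Markers of other cell types were also examined, and 0 of them were called. The median log2 fold changes were -0.21 for 4 oligodendrocyte miRNAs, -0.03 for 6 leukocyte and microglia miRNAs, 0.65 for 2 erythrocyte miRNAs and 0.35 for 5 choroid plexus and ciliated cell miRNAs. Without METH rat 4, a leave-out chosen after seeing the data, they were 0.03, 0.04, -0.41 and 0.02 in the same order. As each rat was left out in turn, they ranged from -0.40 to 0.03, -0.07 to 0.11, -0.41 to 0.89 and 0.02 to 0.49. The summed level of the oligodendrocyte miRNAs was 3381 to 3682 CPM in saline and 2588 to 4816 CPM in METH rats, with METH rat 1 lowest and METH rat 4 highest. The members did not go together in METH rat 4, where miR-219a-2-3p made up 4119 CPM of the sum, while miR-219a-5p and miR-338-3p, at 113 and 259 CPM, were the lowest of the 8 rats. That of the leukocyte and microglia miRNAs was 1191 to 2245 CPM in saline and 993 to 2265 CPM in METH rats. Most of this sum was miR-150-5p, which was the lowest of the 8 rats in METH rat 4 (665 CPM), while miR-146a-5p and miR-223-3p were the highest there, at 299 and 14.0 CPM. The part of these cell types in the spread of miR-128-2-5p was not tested.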

How the data were processed

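Small RNA from the striatum of 8 rats was sequenced with a UMI library kit. The authors trimmed adapters with cutadapt 1.18, aligned reads to rn6 with STAR 2.7.0e and counted them with featureCounts of Subread 1.6.4. The deposited values are raw counts per mature miRNA, with no normalization by the authors. Merging of reads by UMI, the miRNA annotation and the rule for reads with several alignments are not given in the sources used here. If reads aligned to both miR-128 genes were dropped or counted at both, the level of miR-128-3p and its ratio to the passengers would shift. Its count was even in 1 of 8 libraries, so it was not a count doubled throughout.

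Of 752 miRNAs, 90 had no count, and 507 passed filterByExpr (minimum count 10). Libraries were scaled by TMM. METH was compared with saline by the quasi-likelihood test of edgeR 4.0.16 (R 4.3.3), with Benjamini-Hochberg adjustment over the 507. The SE was taken as the size of the log2 change over the square root of its F statistic. Log2 CPM used a prior count of 2. Ratios of raw counts were compared by two-sided exact permutation over 70 assignments (scipy 1.17.1). Hairpins were folded with RNAfold 2.7.2. Alternatives were run with limma 3.58.1, DESeq2 1.42.0, other scalings and filters, the rat number as a block, halved even-only counts and each rat left out. The arms and lists were chosen with earlier results of these data known. Named miRNAs were the 3 arms, the 2 neighbours in level on either side of miR-128-3p, the 5 most alike in pattern and both miR-27 miRNAs. The most abundant of each of the protein-coding gene, dopamine receptor and neuron lists was named too. Other members of the marker lists were named after their values had been seen.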

Additional observations from a re-analysis of the deposited data

Results flagged for a closer look

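Each set of 4 rats was searched for an outlying rat, 16 sets in all (the 3 arms, their 3 ratios and both miR-27 miRNAs in each group). Such a rat was found in 2 sets, where chance gives about 0.8. Both concerned the log2 ratio of miR-128-2-5p to miR-128-1-5p. Saline rat 1 was at 1.13, against 2.48 to 2.71 in the other saline rats, a gap of 0.858 of the whole range. METH rat 1 was at 0.083, against 2.62 to 2.79 in the other METH rats, a gap of 0.937 of the range, where the limit for both is 0.829. What sets these rats apart was not tested.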

How the results depend on the processing

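No miR-128 arm was called in any of the 18 other fits, with adjusted p-values from 0.529 to 0.999. The sign of the small log2 fold changes was not stable, and its cause was not tested. Scaled by library totals, miR-128-3p was at -0.10 and miR-128-1-5p at -0.057. With even-only counts halved, miR-128-3p was at -0.012. With voom and sample weights, miR-128-2-5p was at -0.075 and miR-128-3p at 0.25. With the replicate block miR-128-2-5p was at -0.031, but rats with the same number share only that number (correlations of their deviations -0.36 to -0.15). With each rat left out, the ranges were -0.073 to 0.20 for miR-128-3p, -0.046 to 0.36 for miR-128-1-5p and -0.12 to 0.60 for miR-128-2-5p. The differences in log2 ratio ranged from -0.30 to 0.037 for miR-128-3p to miR-128-1-5p, from -0.44 to 0.47 for miR-128-3p to miR-128-2-5p and from -0.54 to 0.47 between the passengers. The correlation of miR-128-3p with miR-128-1-5p ranged from 0.25 to 0.67, that with miR-128-2-5p from -0.14 to 0.66, and that between the passengers from -0.20 to 0.29. The within-group SD of miR-128-2-5p ranged from 0.47 to 1.09. With library totals the correlations of miR-128-2-5p were 0.075 and -0.16. Over all miRNAs, calls numbered 8 with DESeq2, 7 with the likelihood ratio test and 0 to 5 with a rat left out, the 5 without METH rat 1. With each count taken as an independent molecule, counting error would give a coefficient of variation of 9.13% for miR-128-1-5p, the scarcest arm. The spread between rats was 26.2%. If reads were not merged by UMI, the counting error could be larger.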

Other observations

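The miRNAs most like the passengers in their pattern over the 8 rats were looked up after their values had been seen. For miR-128-2-5p they were miR-27a-5p, miR-664-2-5p, miR-30c-2-3p, miR-204-3p and miR-345-3p, with Pearson r from 0.87 to 0.89 for log2 CPM. Without METH rat 4, r was 0.82 to 0.89 and none of these 5 was still among the 5 most alike. For miR-128-1-5p they were miR-92b-3p, miR-1247-5p, miR-3577, miR-139-3p and miR-187-3p, with r from 0.84 to 0.92, of which miR-92b-3p, miR-3577 and miR-139-3p were still among the 5 most alike without METH rat 4. The lists for the 2 passengers share no miRNA with each other or with that for miR-128-3p.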
